A study of Mus musculus with 16 samples.

Results

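The genes described here carry symbols given to nuclear subunits of the mitochondrial oxidative phosphorylation machinery, and were measured by poly(A) RNA sequencing of terminal ileum in 16 samples. A symbol does not show that a product is a subunit, and the rule need not cover every nuclear subunit. Members were chosen by symbol alone: the Ndufa, Ndufb, Ndufc, Ndufs and Ndufv genes of complex I without the Ndufaf assembly factors, Sdha to Sdhd of complex II, the Uqcr genes of complex III, the Cox4 to Cox8 genes of complex IV and the Atp5 genes of complex V. The rule found 84 of the 24940 genes in the table, 38 in complex I, 4 in complex II, 8 in complex III, 18 in complex IV and 16 in complex V. No gene of the mitochondrial genome was in the table, so the subunits encoded there were not analysed here.

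All mice were of the C57BL/6 strain and homozygous for a loxP-flanked Bcl6 allele. Bcl6fl/fl mice were the controls (WT), and Bcl6LKO mice (LKO) also carried Albumin-Cre, which is driven by a hepatocyte promoter, so the ileum itself was not the targeted tissue. There were 4 samples in each of the groups male WT (MWT), male LKO (MLKO), female WT (FWT) and female LKO (FLKO), each a piece of ileum next to the cecum. The labels do not say that samples of a group came from separate animals, so p-values measure the spread between these samples. The age of the mice was not given in the sources used here, and of the feeding states the study's methods name for its experiments, free feeding or a short fast, the one that applied to these samples was not given. BCL6 is a transcriptional repressor, and the study asked how its loss from hepatocytes bears on bile acid signalling between liver and ileum.

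Oxidative phosphorylation is carried out in the inner mitochondrial membrane. Complex I takes electrons from NADH and complex II from succinate, complex III passes them to cytochrome c and complex IV to oxygen, and the proton gradient built up by complexes I, III and IV drives ATP synthesis by complex V. Enterocytes rely on it for the energy used in nutrient uptake.

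Gene counts summed to between 15.7 and 20.5 M (1 M is 1e+06 counts) per library in 15 libraries, and to 60.3 M in FLKO replicate 1. The members together took between 1.35% and 1.56% of the counts of a library. Bcl6 itself, which in the ileum is outside the reach of the Cre, averaged 15.9 ± 1.61 CPM (counts in 1e+06 after TMM scaling, mean ± SD, n = 4) in MWT and 18.9 ± 2.05 CPM in MLKO, and 12.1 ± 2.92 CPM in FWT and 20.7 ± 5.02 CPM in FLKO. Neither difference passed the adjusted threshold of 0.05 (edgeR quasi-likelihood test, adjusted p = 0.879 in males and 0.285 in females), and Bcl6 was not lower in either LKO group. The ileal bile acid binding protein gene Fabp6 lay between 2690 and 5422 CPM and the ileal bile acid transporter gene Slc10a2 between 426 and 816 CPM, so the libraries carried markers of terminal ileum. B cell markers (9 genes) summed to between 18.8 and 425 CPM per library, with the highest sum in FLKO replicate 3.

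For 17 of the 84 members, part of the spliced transcript is identical over 100 bases, the length of a read, to the transcript of a gene elsewhere in the genome. Since reads with more than 1 mapping position were discarded before counting, a read lying wholly within such a stretch could not contribute a count. The coding starts of 4 members with such stretches and low counts are shown here because they show how far a copy can match, from GENCODE transcripts (GRCm38), 150 bases from the start codon each. Lower case marks bases that are identical in the named copy.
Atp5g2: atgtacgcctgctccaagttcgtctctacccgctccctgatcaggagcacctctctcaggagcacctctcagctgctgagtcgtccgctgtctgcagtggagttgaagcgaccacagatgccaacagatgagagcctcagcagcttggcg
Atp5l: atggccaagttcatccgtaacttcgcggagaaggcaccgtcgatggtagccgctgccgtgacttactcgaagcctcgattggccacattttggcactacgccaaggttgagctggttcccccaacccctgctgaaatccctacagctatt
Cox7c: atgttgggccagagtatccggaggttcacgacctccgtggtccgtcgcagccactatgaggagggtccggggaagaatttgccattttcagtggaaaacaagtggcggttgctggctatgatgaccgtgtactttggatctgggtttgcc
Ndufb4: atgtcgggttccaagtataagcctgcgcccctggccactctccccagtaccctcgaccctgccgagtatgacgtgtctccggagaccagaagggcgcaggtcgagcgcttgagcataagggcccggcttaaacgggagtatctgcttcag
In all 4 sequences the copy matched at 150 of 150 bases. The match of Atp5g2 (chr15:102662868-102671047, minus strand, mm10), which encodes a c-ring subunit of the ATP synthase, to Gm10175 on chromosome 7 extended over the whole coding sequence of 441 bases. That of Atp5l (chr9:44913248-44920742, minus strand), the g subunit, to the processed pseudogene Gm10221 on chromosome 5 covered 309 of 312 coding bases without a break. For Cox7c (chr13:86044798-86046795, minus strand), a small structural subunit of complex IV, and Gm12338 on chromosome 11 it covered all 192 bases, and for Ndufb4 (chr16:37647602-37654368, minus strand), an accessory subunit of complex I, and Ndufb4c on chromosome 15 all 390 bases.

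A contrast is given by Ndufab1, the mitochondrial acyl carrier protein that is also bound to complex I, and its processed pseudogene Gm4459, both on chromosome 7. In coding bases 126 to 275 they differ at 1 of 150 positions, shown in capitals.
Ndufab1: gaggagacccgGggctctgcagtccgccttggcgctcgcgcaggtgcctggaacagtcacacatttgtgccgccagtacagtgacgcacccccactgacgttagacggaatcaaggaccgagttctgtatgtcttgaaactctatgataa
Gm4459: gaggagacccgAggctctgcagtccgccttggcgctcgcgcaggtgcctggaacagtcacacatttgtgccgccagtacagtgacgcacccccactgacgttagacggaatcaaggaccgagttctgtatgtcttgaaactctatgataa
Up to 4 mismatches were allowed per read, so a read covering this position could align to both genes, better to its own.

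Of the members' promoters, 69 genes had an entry in the RefSeq table (GRCm38.p6, 250 bases before to 50 bases after the transcript start). The letters CGCATGCG of nuclear respiratory factor 1 (NRF1) motifs were found, on either strand, in 9 of the 69 genes (13.04%) and in 2.07% of all 27025 genes with an entry. AAGATGGC, of YY1 motifs, was present in 10 members (14.5%, against 3.19%), CCGGAAG, of ETS factor motifs, in 16 (23.2%, against 9.93%) and CAAGGTCA, of estrogen-related receptor (ERR) motifs, in 4 (5.80%, against 1.76%). The CCAAT letters were in 30 members (43.5%, against 41.1%) and TATAAA in 7 (10.1%, against 15.7%). None of these strings contains another, although CCGGAAG and AAGATGGC can share the letters AAG where they meet, and a match is a description of sequence, not a site of binding. The promoters of Ndufa9 (chr6:126849095-126849394, minus strand), an accessory complex I subunit, and Sdhd (chr9:50603800-50604099, minus strand), a membrane anchor of complex II, are printed because both genes were called between the sexes. Capitals mark the YY1 letters in Ndufa9, and in Sdhd the ETS letters (46 bases before the start) and the ERR letters (36 bases after it), both on the reverse strand.
Ndufa9: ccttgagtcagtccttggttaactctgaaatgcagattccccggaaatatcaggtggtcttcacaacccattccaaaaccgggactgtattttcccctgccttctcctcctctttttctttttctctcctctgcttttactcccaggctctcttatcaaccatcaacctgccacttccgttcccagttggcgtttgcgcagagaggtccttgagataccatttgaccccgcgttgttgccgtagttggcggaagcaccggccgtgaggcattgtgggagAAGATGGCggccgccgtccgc
Sdhd: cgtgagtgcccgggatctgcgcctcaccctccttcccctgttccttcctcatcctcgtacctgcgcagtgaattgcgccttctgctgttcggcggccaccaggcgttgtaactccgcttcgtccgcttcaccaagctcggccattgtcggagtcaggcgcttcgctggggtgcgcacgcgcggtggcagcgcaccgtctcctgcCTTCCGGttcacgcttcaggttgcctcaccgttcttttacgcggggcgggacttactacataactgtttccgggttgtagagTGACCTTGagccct

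The members were highly expressed in ileum. Their median level was 114 RPKM (CPM per kb of exon length, on the TMM scale), against 8.18 RPKM for the 14423 genes averaging 1 CPM or more, and 74 of the 84 lay above that median. The ATP synthase genes led. Atp5b, the catalytic beta subunit, reached 1076 ± 81.5 RPKM in MWT (n = 4), 1077 ± 32.3 in MLKO, 1004 ± 33.5 in FWT and 1020 ± 50.04 in FLKO, and was the highest of all members. Its partner in the catalytic head, Atp5a1 (alpha), followed among the complex V genes with a mean of 642 RPKM over the 16 libraries. Complex V genes took 41.4% of the members' CPM, complex I 22.2%, complex IV 16.9%, complex III 11.2% and complex II 8.23%.

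**Figure D1:**
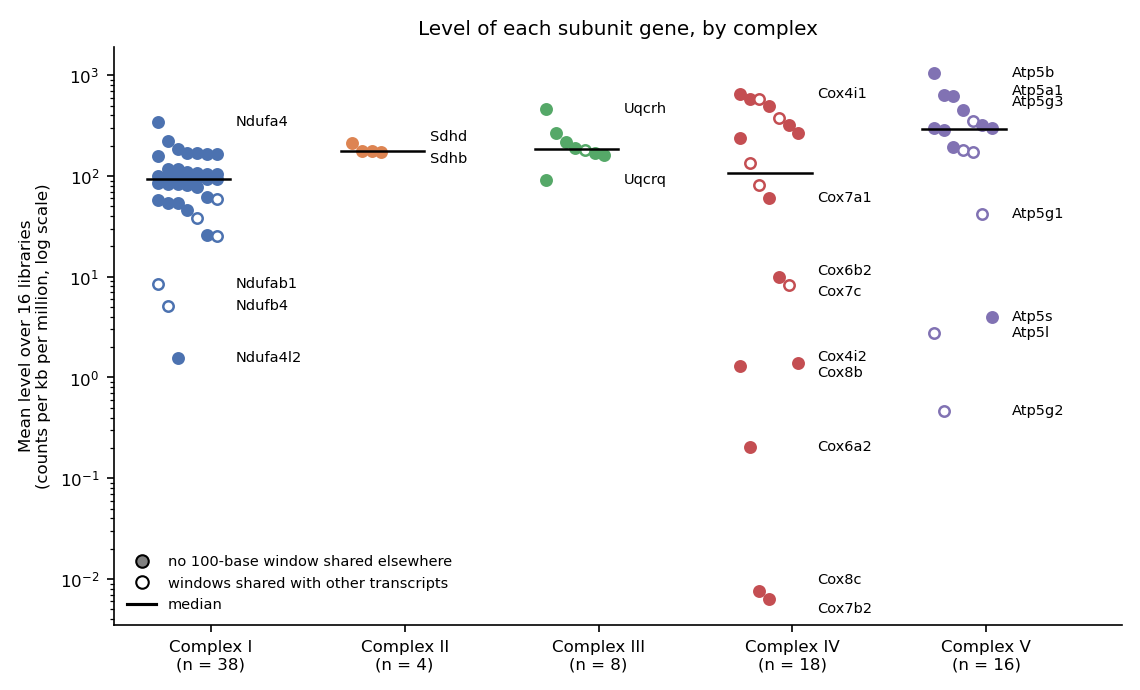
Mean level of each of the 84 subunit genes over the 16 libraries, in RPKM on a log scale, by complex. Filled points are genes with no 100-base window in a transcript of a gene elsewhere and open points genes that share such windows; lines are medians, from 94.1 in complex I to 292 in complex V, and complex II is the tightest, from 172 to 213.

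Levels within a complex were uneven except in complex II. Its members Sdhd (213 RPKM), Sdha (179), Sdhc (175) and Sdhb (172) lay close together, Sdha and Sdhb being the catalytic flavoprotein and iron-sulfur subunits. In complex III the hinge protein gene Uqcrh (457 RPKM) was highest and the small subunit gene Uqcrq (91.5) lowest, with the core proteins Uqcrc1 (218) and Uqcrc2 (188) and the Rieske iron-sulfur protein Uqcrfs1 (160) between them. In complex I, Ndufa4, whose protein is now assigned to complex IV, was highest at 346 RPKM. The catalytic core genes Ndufv1 (99.4 RPKM) and Ndufs1 (54.1), whose proteins carry iron-sulfur clusters, lay on either side of the median of the complex at 94.1. Cox4i1, a regulatory subunit, was highest in complex IV at 650 RPKM, and Cox5a, another nuclear subunit of the complex, was at 323. The median coefficient of variation within groups was 6.15% for the 72 members averaging 10 CPM or more.

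Where a subunit has tissue-specific isoforms, the ileum carried mainly the broadly expressed form. Cox4i1 stood at 650 RPKM and Cox4i2, the lung-enriched form, at 1.40. Cox6a1 was at 581 and the heart and muscle form Cox6a2 at 0.202, and Cox8a at 493 and the muscle form Cox8b at 1.29. Cox8c, a testis form, and Cox7b2 had 1 count each over all 16 libraries, while Cox7b was at 267. Cox6b1 was at 582 and the testis form Cox6b2 at 10.03. Cox7a1, the heart and muscle form, was the exception among them: it reached 61.0 RPKM, below Cox7a2 (239) and the supercomplex factor gene Cox7a2l (81.8) but far above the other muscle forms. The tissue piece also held smooth muscle, whose 10 marker genes summed to between 3320 and 6468 CPM. The 7 skeletal muscle markers summed to between 36.5 and 171 CPM, and 3 of them averaged 1 CPM or more. The part of these tissues in the level of Cox7a1 was not tested. Ndufa4l2, a paralogue of Ndufa4 known to be induced by hypoxia, was at 1.56 RPKM. The c-ring of the ATP synthase is encoded by 3 genes with the same mature protein, of which Atp5g3 gave 620 RPKM, Atp5g1 42.0 and Atp5g2 0.464.

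Of the 67 members without a shared 100-base window, 7 were under 10 RPKM: Cox4i2, Cox6a2, Cox7b2, Cox8b, Cox8c, Ndufa4l2 and Atp5s. Among the 17 members with shared windows, 5 were under 10 RPKM, and they are subunits for which no other gene is in the list, or of a family in which others are high: Atp5g2 (86.4% of windows shared), Atp5l (61.3%, 2.78 RPKM), Cox7c (44.4%, 8.25 RPKM), Ndufb4 (33.4%, 5.17 RPKM) and Ndufab1 (9.50%, 8.46 RPKM). Their counts ran from 1 to 18 per library for Atp5g2 and from 44 to 281 for Cox7c. Ndufab1 averaged 17.1 CPM, and its level per kb rests on an exon length of 2022 bases. Shared windows did not always go with low counts, since Atp5h (32.7%) was at 174 RPKM and Atp5g1 (57.3%) at 42.0. Only annotated transcripts were searched, not the genome, so copies outside them were not counted. Counts of these 17 members are therefore uncertain as levels.

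**Figure D2:**
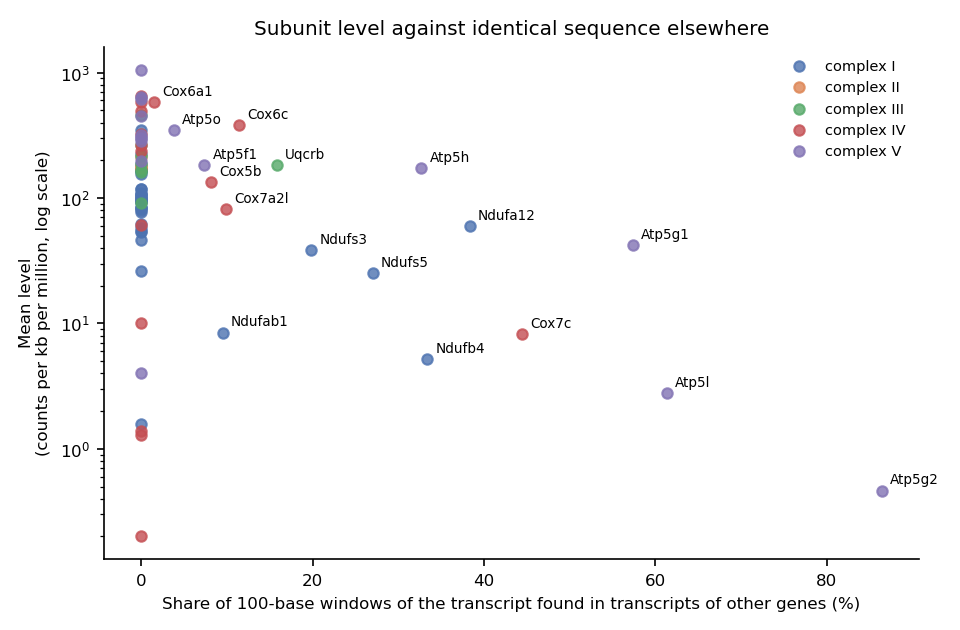
Mean level of each member (RPKM, log scale) against the share of its transcript's 100-base windows that also occur in transcripts of genes elsewhere; Cox7b2 and Cox8c, with 1 count each, are not drawn. The 3 genes above 50% are Atp5g1, Atp5l and Atp5g2, with levels of 42.0, 2.78 and 0.464.

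Loss of hepatic Bcl6 was compared first in males. No member was called in MLKO against MWT: 0 of the 79 tested, against 0.0527% of all 15169 genes (edgeR), and none was called by DESeq2. Before adjustment, 0 members had a p under 0.05, against 5.29% of all genes. The members' median log2 fold change was -0.04, with 59 of 79 below 0, and that of all genes tested was -0.00. The 72 members averaging 10 CPM or more lay between -0.13 and 0.10, and for all 72 the 95% interval stayed within a 1.5-fold change in either direction.

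The core subunits illustrate the size of these intervals. Atp5b differed by 0.01 (95% interval -0.14 to 0.15), Cox4i1 by -0.01 (-0.16 to 0.13), Ndufs1 by 0.02 (-0.12 to 0.15) and Ndufv1 by -0.05 (-0.19 to 0.09). In complexes II and III the differences were 0.01 for Sdha (-0.13 to 0.14), -0.05 for Sdhb (-0.20 to 0.10), 0.01 for Uqcrc1 (-0.15 to 0.18) and -0.01 for Uqcrfs1 (-0.14 to 0.11). Cox5a gave -0.10 (-0.24 to 0.05) and Atp5a1 0.01 (-0.13 to 0.15).

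Ndufa6, an accessory complex I subunit, had the smallest p among the members in males. It measured 96.2, 103, 104 and 95.6 CPM in MWT replicates 1 to 4 and 94.0, 90.8, 97.6 and 79.8 CPM in MLKO replicates 1 to 4. The groups overlap through 1 MLKO library, and the log2 fold change of -0.13 (SE 0.07) had an adjusted p of 0.994 (edgeR). Ndufa8, also an accessory subunit, measured 90.9, 91.2, 98.5 and 89.7 CPM in MWT and 83.6, 86.7, 89.3 and 85.6 CPM in MLKO. Here the groups do not overlap, by a gap smaller than the spread within either, and the log2 fold change was -0.10 (SE 0.06, adjusted p = 0.999, edgeR). Atp5j2, the f subunit of the ATP synthase, gave -0.10 (SE 0.07). The most negative value was that of Ndufb4 at -0.41 (SE 0.22), from 2.07, 2.04, 2.87 and 2.92 CPM in MWT and 1.42, 2.03, 1.99 and 2.02 CPM in MLKO. These groups do not overlap either, and the adjusted p was 0.999 (edgeR). That gene is among those with shared windows, with 28 to 186 counts per library. Cox4i2 gave -0.16 (SE 0.33), and the largest positive values were 0.28 (SE 0.22) for Cox6b2, 0.17 (SE 0.32) for Ndufa4l2 and 0.10 (SE 0.10) for Cox7a1.

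The median in males rested on 1 library. MWT replicate 3 had the highest member level of all 16 libraries, with a median log2 ratio of 0.18 to the mean over libraries, and without it the members' median log2 fold change between MLKO and MWT was 0.01. With the number in the sample title as a covariate it was also 0.01. In males every MWT title number is below every MLKO one, so this covariate runs with genotype and is not a separate adjustment. Among the cell type marker lists, that of Paneth cells, the antimicrobial cells of the crypt base, was the only one with called genes in males: 3 of its 7 genes (Itln1, Lyz1 and Mmp7) were called higher in MLKO (edgeR), and its summed level was 11560 to 13943 CPM in MWT and 17274 to 20499 CPM in MLKO. All 7 T cell markers had lower values in MLKO (median log2 fold change -0.33, sums of 148 to 229 CPM in MWT and 135 to 154 CPM in MLKO), 3 of them with a p under 0.05 before adjustment and none called. All 6 B cell markers tested also had lower values (median -1.02, sums of 18.8 to 132 CPM in MWT and 24.1 to 27.5 CPM in MLKO), as had all 5 adipocyte markers tested (median -0.75), with 0 at a p under 0.05 in either list. The part of these lists in the members' values was not tested.

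**Figure D3:**
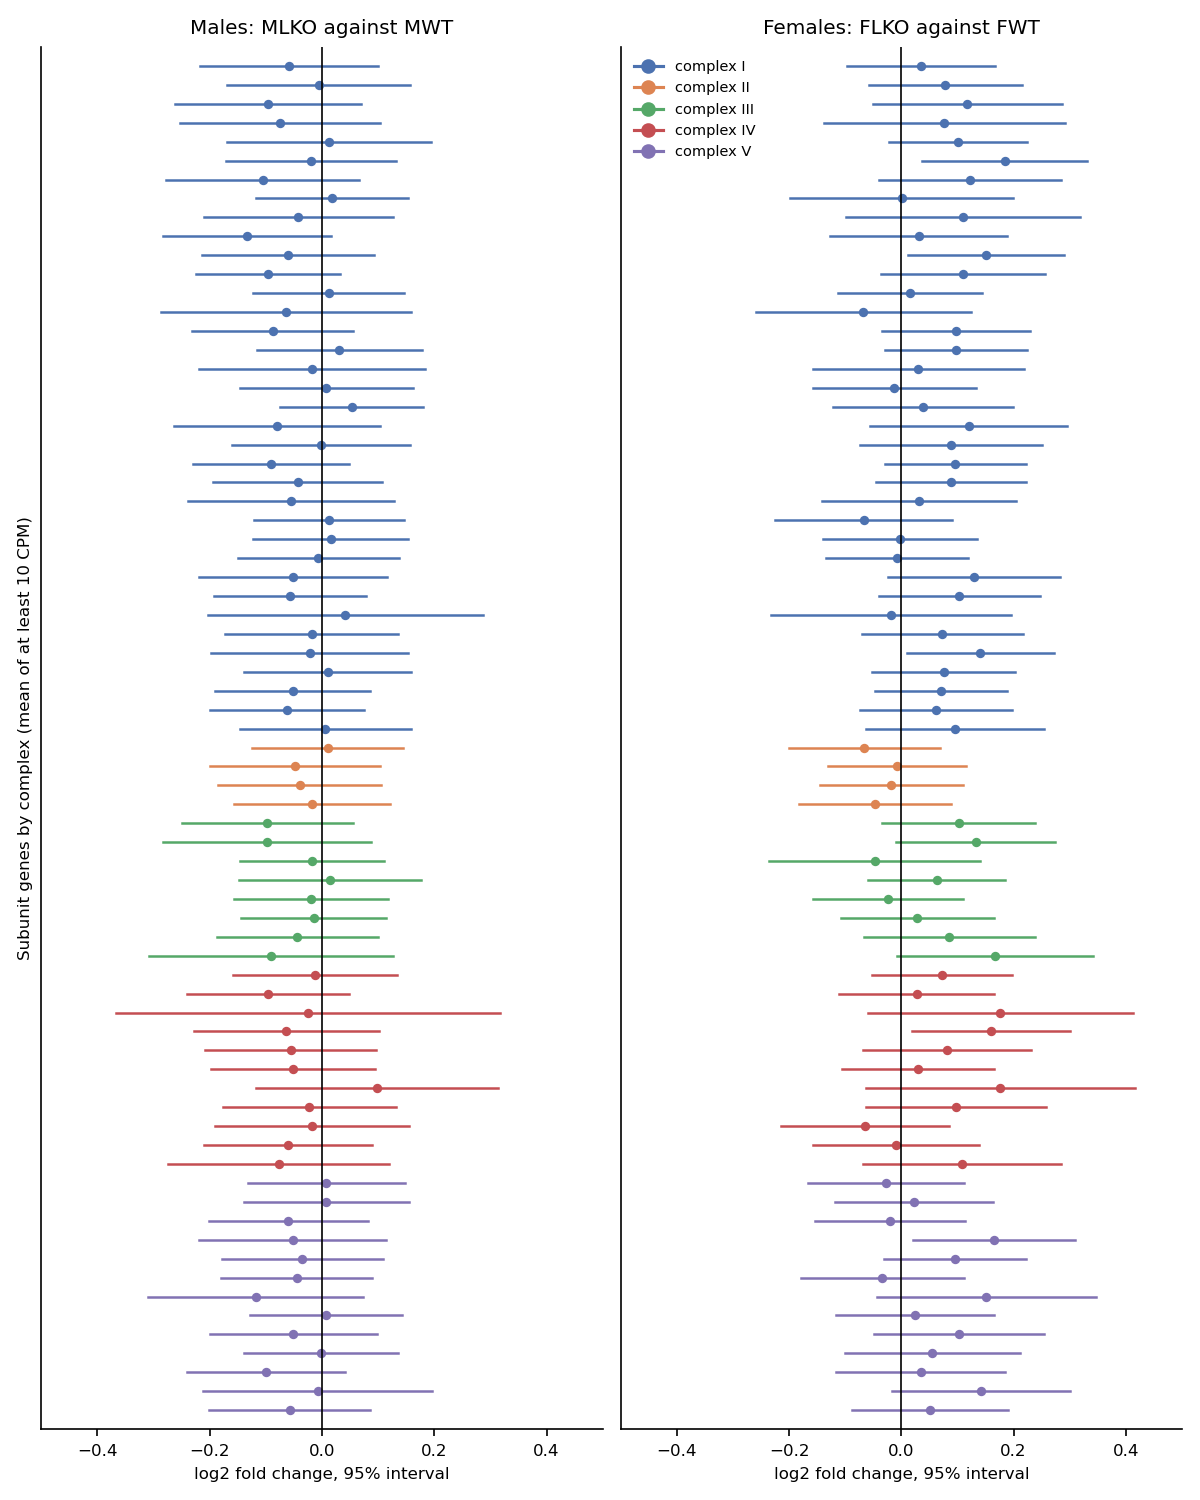
Log2 fold change (LKO against WT) with its 95% interval for the 72 subunit genes averaging 10 CPM or more, in males on the left and females on the right, coloured by complex. In males the points lie between -0.13 and 0.10 and in females between -0.07 and 0.18, and no gene passed the adjusted threshold in either sex.

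In females the same comparison gave values on the other side of 0. Again no member was called in FLKO against FWT (0 of 79 by edgeR and by DESeq2, against 0.0392% of all 15298 genes by edgeR). The members' median log2 fold change was 0.08, with 60 of 79 above 0, and that of all genes tested was 0.01. Before adjustment, 6 of the 79 members (7.59%) had a p under 0.05, against 11.7% of all genes in either direction. Counted that way the share was not above the background, and the share of all genes on the higher side alone is not given here. The 6 were the complex I genes Ndufa2, Ndufa4l2, Ndufa7 and Ndufs7, the complex IV gene Cox6a1 and the complex V gene Atp5d, each with a higher value in FLKO. For all 72 members averaging 10 CPM or more the 95% interval again stayed within a 1.5-fold change.

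Ndufa2, an accessory subunit of complex I, measured 60.5, 68.5, 59.9 and 62.6 CPM in FWT replicates 1 to 4 and 72.7, 77.2, 70.1 and 65.5 CPM in FLKO replicates 1 to 4. FLKO replicate 4 lay within the range of FWT, and the log2 fold change was 0.18 (SE 0.07, adjusted p = 0.342, edgeR). Atp5d, the delta subunit in the central stalk of the ATP synthase, measured 255, 297, 266 and 298 CPM in FWT and 315, 329, 311 and 296 CPM in FLKO. Its log2 fold change was 0.16 (SE 0.07, adjusted p = 0.370, edgeR), and the groups overlap through FLKO replicate 4. Cox6a1 measured 275, 309, 278 and 284 CPM in FWT and 329, 340, 317 and 293 CPM in FLKO, a log2 fold change of 0.16 (SE 0.07, adjusted p = 0.374, edgeR). In each of these 3 genes FLKO replicate 4 was the lowest of its group. Ndufa4l2, at 1.61, 1.27, 0.877 and 0.932 CPM in FWT and 1.78, 2.08, 1.46 and 1.91 CPM in FLKO, had the largest log2 fold change, 0.62 (SE 0.24, adjusted p = 0.358, edgeR). Cox7c (0.34, SE 0.17) and Cox6b2 (0.33, SE 0.23) followed, both at low counts, and the lowest values were -0.22 (SE 0.11) for Atp5s, -0.15 (SE 0.27) for Atp5l and -0.07 (SE 0.09) for Ndufab1. The value of Cox6b2 rested on FLKO replicate 2, at 10.4 CPM against 4.73 to 6.01 CPM in the rest of the group, and was 0.04 without it.

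Among the core members in females, Ndufs1 (log2 fold change -0.00, 95% interval -0.14 to 0.13), Sdhb (-0.01, -0.13 to 0.12) and Atp5b (0.02, -0.12 to 0.16) were nearest to 0. Sdha gave -0.07 (-0.20 to 0.07), Atp5a1 -0.03 (-0.17 to 0.11), Cox5a 0.03 (-0.11 to 0.17), Uqcrfs1 0.03 (-0.11 to 0.17), Uqcrc1 0.06 (-0.06 to 0.18), Ndufv1 0.07 (-0.05 to 0.19) and Cox4i1 0.07 (-0.05 to 0.20). The 4 genes of complex II all lay below 0 (median -0.03), whereas the medians of complexes I (0.08), III (0.07), IV (0.10) and V (0.03) lay above it.

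Short transcripts had higher values than long ones in this comparison. Over the 72 members, Spearman's rho between log2 fold change and exon length was -0.38, and over 10033 other genes it was -0.42, which describes genes of the same libraries and is not a test. In males rho was 0.25 over the members and -0.10 over the other genes. For the male effect minus the female effect it was 0.40 and 0.30. In 107 other genes as short as the 24 shortest members (up to 563 bases), the median log2 ratio of a library to the mean over libraries was 0.11 in both FLKO replicates 1 and 2, in which the members stood at 0.08 and 0.09. The values of these short genes in the other libraries are not given here, so no relation over libraries is read from this. The part of transcript length in the members' values was not tested.

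No cell type marker was called in females (edgeR). All 7 B cell markers tested had higher values in FLKO (median log2 fold change 2.45, sums of 25.4 to 77.8 CPM in FWT and 30.9 to 425 CPM in FLKO), with 0 at a p under 0.05 before adjustment. All 6 adipocyte markers tested were also on the higher side (median 0.90, sums of 46.9 to 106 CPM in FWT and 77.3 to 198 CPM in FLKO), 2 of them with a p under 0.05, and of the 8 goblet cell markers 2 had a p under 0.05 with lower values. The 7 Paneth cell markers had a median of 0.15, 6 of them higher in FLKO and 0 at a p under 0.05, and of the 6 plasma cell markers 2 had a p under 0.05 with higher values. The part of these lists in the members' values was not tested.

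The difference between the male and the female effect was tested directly. None of the 80 members tested was called for the interaction (edgeR and DESeq2), nor was any of the 15598 genes by edgeR (0.0%). Of the members, 67 of 80 had a negative value (LKO effect in males minus that in females) and the median was -0.10, against -0.00 over all genes tested. A p under 0.05 before adjustment was found for 9 members (11.2%), all negative, against 5.64% of all genes in either direction. Ndufa8 had the smallest p, with an interaction of -0.21 (SE 0.09, adjusted p = 0.845, edgeR). It measured 79.8, 83.7, 75.3 and 80.8 CPM in FWT and 90.2, 89.2, 75.8 and 89.4 CPM in FLKO, where replicate 3 stands with the controls and the other 3 above them. Ndufb8 (-0.19, SE 0.08), Ndufa7 (-0.22, SE 0.09) and Cox6a1 (-0.23, SE 0.10) followed with the same adjusted p of 0.845 (edgeR). Among the cell type lists, 7 of the 9 B cell markers had a p under 0.05 before adjustment for the interaction, all negative (median -4.90). So had 3 of the 6 adipocyte markers tested, also negative, and 3 of the 7 Paneth cell markers, all positive. Each other cell type list held at most 2 such genes. None of these markers was called (edgeR), and the part of these lists in the members' values was not tested. Over both sexes together the LKO effect was near 0. Again 0 of 80 members were called (edgeR and DESeq2), against 0.269% of the 15598 genes by edgeR, and 0 had a p under 0.05 before adjustment, against 11.2%. The median log2 fold change was 0.01. The smallest p belonged to Ndufa4l2 (0.39, SE 0.21), Cox7a1 (0.13, SE 0.08), Cox6b2 (0.30, SE 0.17) and Ndufa2 (0.08, SE 0.05), with adjusted p between 0.499 and 0.617 (edgeR).

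The level of the members was also read per library. Their median log2 ratio to the mean over libraries averaged 0.05 ± 0.09 (SD, n = 4) in MWT, 0.00 ± 0.05 in MLKO, -0.06 ± 0.03 in FWT and -0.00 ± 0.10 in FLKO. In FLKO, replicates 1 and 2 stood at 0.08 and 0.09 and replicates 3 and 4 at -0.11 and -0.06, so 2 libraries of the group stood above and 2 below the mean over libraries. FLKO replicate 3, the lowest of all libraries, also had the highest sum of B cell markers, 425 CPM, and FLKO replicate 1 was the most deeply sequenced. The part of other cell types in the members' levels was not tested, and in bulk tissue fewer cells of a type and less RNA per cell cannot be told apart.

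**Figure D4:**
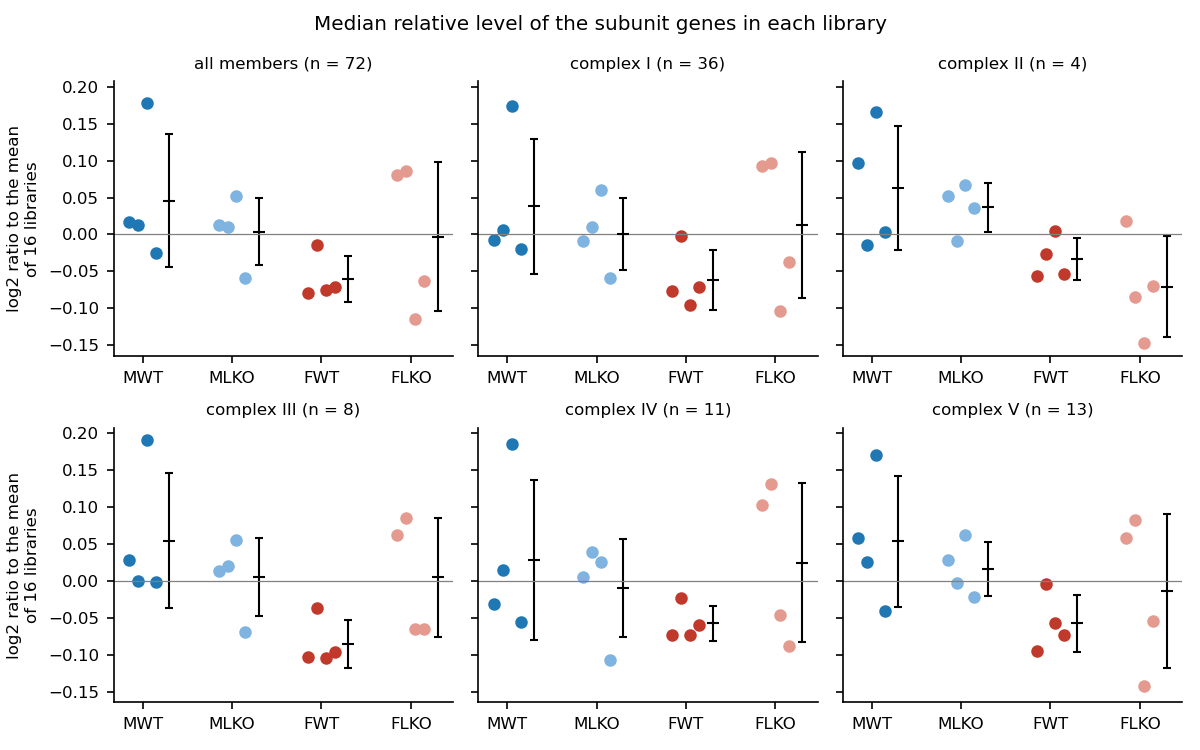
Median log2 ratio of each library to the mean of the 16 libraries over all 72 members averaging 10 CPM or more and over those of each complex; points are libraries, bars the group mean and SD (n = 4). MWT replicate 3 is highest in every panel, at 0.18 over all members, and FLKO replicate 3 is lowest over all members, at -0.11.

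More members passed the test between the sexes. Males against females over both genotypes, with genotype as a covariate, gave 5 called members of 80 (6.25%, edgeR), all higher in males. Of all 15598 genes, 11.0% were called and 5.61% were called higher in males, so the members' share was near the background. A p under 0.05 before adjustment was found for 18 members (22.5%), all higher in males. Of all genes 29.3% had such a p in either direction, and the share on the higher side alone is not given here. The members' median log2 difference was 0.05, with 61 of 80 above 0. All members of complexes II and III (12 genes) had positive values, with medians of 0.10 and 0.08.

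Uqcrc2, a core protein of complex III, had a lowest, median and highest value of 347, 368 and 393 CPM in the 8 males and of 308, 335 and 362 CPM in the 8 females. Its log2 difference was 0.14 (SE 0.04, adjusted p = 0.0312, edgeR). For Ndufa9 the values were 136, 148 and 158 CPM in males and 125, 135 and 141 CPM in females, a difference of 0.14 (SE 0.04, adjusted p = 0.0323, edgeR). Sdhd ranged from 269 over a median of 285 to 303 CPM in males and from 235 over 259 to 277 CPM in females (0.14, SE 0.04, adjusted p = 0.0332, edgeR). The complex I core gene Ndufs1 ranged from 156 over 165 to 178 CPM in males and from 138 over 153 to 159 CPM in females (0.14, SE 0.04, adjusted p = 0.0359, edgeR). Atp5a1 ranged from 1517 over 1633 to 1736 CPM in males and from 1390 over 1487 to 1543 CPM in females (0.13, SE 0.04, adjusted p = 0.0416, edgeR). In all 5 genes the male median lay above the highest female, and the lowest male below it, so the sexes overlap in part. Their interactions with genotype lay between -0.01 and 0.03, with adjusted p of at least 0.966 (edgeR).

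The count of 5 depended on the settings. It became 0 with upper-quartile scaling, without a filter on low counts, with the number in the sample title as a covariate and with sets of neighbouring title numbers as a factor, and 10 with DESeq2 (the title numbers run in sets that partly coincide with sex, and their meaning is not given in the sources used here). It also became 0 without any 1 of MWT replicate 1, MLKO replicates 1, 3 and 4, FWT replicate 1 and FLKO replicate 3, 1 without FWT replicate 2 or FLKO replicate 2 or 4, and 2 without MWT replicate 3 or FWT replicate 4, although the log2 differences of the 5 genes stayed between 0.09 and 0.17 in these edgeR fits.

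Cell type markers are set beside the 11.0% of all genes called between the sexes, 5.61% higher and 5.44% lower in males. Of the 10 smooth muscle markers 9 were called lower in males (median log2 difference -0.37), with summed levels of 3961 to 4383 CPM in MWT, 3320 to 4305 in MLKO, 4307 to 6468 in FWT and 4564 to 6294 in FLKO. Of the 9 enteric neuron and glia markers 3 were called lower in males. Of the 15 enterocyte markers 2 were called higher in males, Vil1 and Apob, and 1 lower, Fabp1, with summed levels of 25579 to 31036 CPM in MWT, 25473 to 28939 in MLKO, 24074 to 29537 in FWT and 22929 to 29813 in FLKO. Of the 7 Paneth cell markers 4 were called lower in males. Calls in the other lists were of 1 or 2 genes and are not read as a difference of the list: the adipocyte gene Retn (of 6 tested) and the plasma cell gene Tnfrsf17 (of 6) were lower in males, and 2 of the 11 genes of proliferating crypt cells and the goblet cell gene Agr2 (of 8) were higher. All 11 crypt genes had higher values in males, 6 of them with a p under 0.05 before adjustment (edgeR). Of the 8 goblet cell genes 4 had such a p with higher values and 1 with a lower value. Of the 15 enterocyte markers 6 had such a p with higher and 2 with lower values. Of all genes 29.3% had such a p in either direction. None of the 9 B cell, 7 T cell and 3 tested skeletal muscle markers was called between the sexes, and before adjustment 0, 1 and 1 of them had a p under 0.05 (edgeR). The part of these cell types in the sex difference was not tested.

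**Figure D5:**
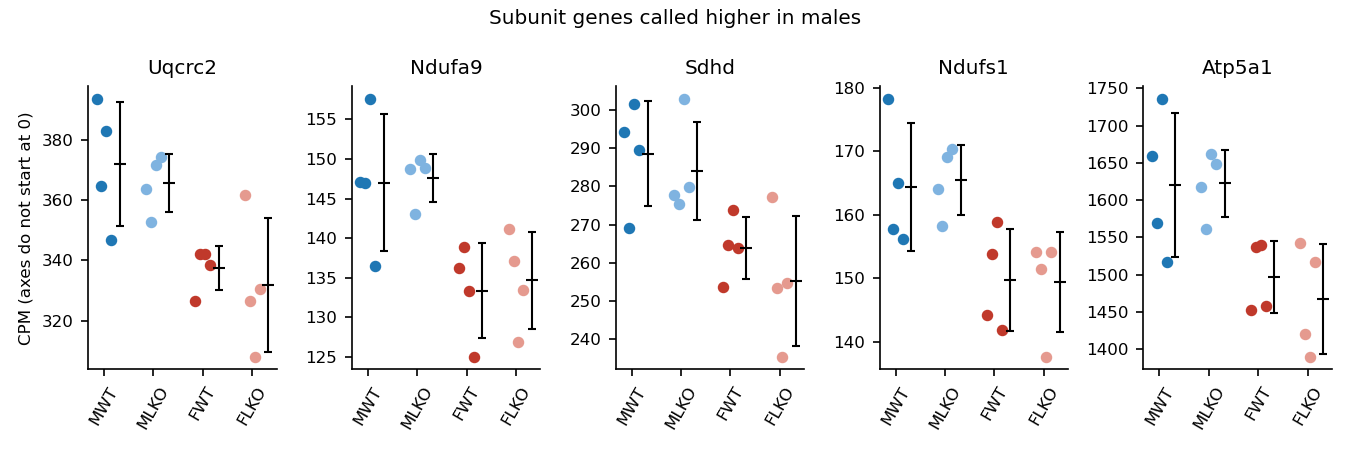
CPM of the 5 members called higher in males over both genotypes, for each library (points) with the mean and SD of each group (n = 4); axes do not start at 0. In each gene the male groups MWT and MLKO lie above FWT and FLKO on average, for Uqcrc2 with a median of 368 in males and 335 in females, and single libraries overlap.

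Within a genotype the sex difference called no member. In MWT against FWT, 0 of 79 members were called (edgeR and DESeq2), against 0.25% of the 15229 genes by edgeR. The median was 0.09, with 73 of 79 above 0. Before adjustment 7 members (8.86%), all higher in MWT, had a p under 0.05, against 13.9% of all genes in either direction. Ndufa8 (0.20, SE 0.06, adjusted p = 0.189), Atp5g1 (0.24, SE 0.09, adjusted p = 0.263), the small complex III subunit gene Uqcr11 (0.21, SE 0.08, adjusted p = 0.273) and Ndufa10 (0.19, SE 0.08, adjusted p = 0.295) had the smallest p by edgeR. For Ndufa10, an accessory complex I subunit, the MWT values of 145, 139, 171 and 138 CPM all lay above the FWT values of 124, 133, 132 and 129 CPM. In MLKO against FLKO, 0 of 79 were called (edgeR and DESeq2), against 0.0984% of the 15250 genes by edgeR, and the median was -0.02. Here 8 members (10.1%) had a p under 0.05 before adjustment, against 22.6% of all genes, 6 higher and 2 lower in males. Ndufs1 (0.15, SE 0.06), Atp5a1 (0.14, SE 0.06) and Sdhd (0.15, SE 0.06) were on the higher side and Ndufa7 (-0.16, SE 0.06) on the lower, with adjusted p between 0.174 and 0.188 (edgeR). No cell type marker was called in MLKO against FLKO (edgeR). A p under 0.05 before adjustment, with lower values in males, was found for all 6 B cell markers tested (median -2.91). It was also found for 5 of 6 adipocyte, 9 of 10 smooth muscle, 5 of 9 enteric neuron and glia and 4 of 7 Paneth cell markers. On the higher side it was found for 5 of 11 crypt and 3 of 8 goblet cell markers. The part of these lists was not tested. The comparisons within a genotype use the libraries of the comparison over both genotypes and are not independent of it.

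Other genes of the pathway were read from lists, and those described singly were chosen after their values were seen. In males and in females, none of the 50 assembly factors, 12 electron carriers and exchangers, 17 tricarboxylic acid (TCA) cycle genes, 16 regulators of mitochondrial biogenesis or 77 mitochondrial ribosome genes tested was called between the genotypes (edgeR). Their median log2 fold changes lay between -0.02 and 0.02 in males and between -0.01 and 0.07 in females. Cytosolic ribosome genes, 78 tested and also without a call, had medians of 0.01 in males and 0.11 in females. Before adjustment the assembly factors had 2 genes with a p under 0.05 in males and 4 in females, the carriers 2 and 1, the TCA cycle 0 and 1, the regulators 4 and 3, the mitochondrial ribosome 0 and 8 and the cytosolic ribosome 1 and 20. In females the 8 mitochondrial ribosome genes are 10.4% of those tested, the 20 cytosolic ribosome genes 25.6% and the 3 regulators 18.8%, against 11.7% of all genes. In males the 4 regulators are 25% (2 higher and 2 lower) and the 2 carriers 16.7% (1 higher and 1 lower), against 5.29% of all genes. The lists of regulators and carriers are short, so nothing particular to them is read from these counts.

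Esrrg encodes estrogen-related receptor gamma, an orphan nuclear receptor known as an activator of oxidative phosphorylation genes, and it was the only gene of these lists called for LKO against WT in both sexes. It measured 7.52, 7.65, 6.74 and 4.72 CPM in MWT and 3.51, 3.23, 3.505 and 2.38 CPM in MLKO, and 6.197, 6.49, 7.35 and 4.93 CPM in FWT and 2.60, 3.42, 2.08 and 3.35 CPM in FLKO. Every LKO library lay below every WT library. The log2 fold change was -1.11 (SE 0.13, adjusted p = 4.73e-04, edgeR), with -1.07 (SE 0.19, adjusted p = 0.0619) in males and -1.14 (SE 0.19, adjusted p = 0.0555) in females. With the title number as a covariate it was -0.99 (adjusted p = 0.0522, edgeR) and with sets of title numbers as a factor -0.87 (adjusted p = 0.140, edgeR). In males the title numbers run with genotype, every MWT number being below every MLKO one. The members with the ERR letters in their promoter were Atp5g3, Atp5l, Ndufs5 and Sdhd. No member at all was called for genotype, so nothing particular to these genes is read from that. A link between them and Esrrg was not tested. Esrra, the more abundant relative, was at 195 CPM with log2 fold changes of -0.04 (SE 0.07) in males and 0.07 (SE 0.06) in females. Ppargc1a, the coactivator of both, had values of -0.31 (SE 0.13, adjusted p = 0.879) in males and -0.39 (SE 0.13, adjusted p = 0.318) in females (edgeR).

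Between the sexes the lists held more calls, over both genotypes and by edgeR, and so did all genes, of which 11.0% were called and 5.61% were called higher in males. Of the 17 TCA cycle genes 4 were called, all higher in males. Among them Cs, citrate synthase (0.17, SE 0.05, adjusted p = 0.0261, edgeR), measured 1009, 987, 1024 and 930 CPM in MWT, 972, 910, 1026 and 964 in MLKO, 771, 840, 926 and 848 in FWT and 839, 981, 875 and 866 in FLKO, and only FLKO replicate 2 and FWT replicate 3 reached the male range. Of the 50 assembly factors 6 were called, all higher in males: Lrpprc, Sco1, Coa5, Taco1, Cox15 and Cox10, with log2 differences of 0.13 to 0.22, and of the 77 mitochondrial ribosome genes 4 (5.19%), also higher. The share of the mitochondrial ribosome is near that of all genes, and the lists of assembly factors (12% called), carriers (25%) and TCA cycle genes (23.5%) are short, so nothing particular to them is read from these counts. The carriers split. Slc25a5 and Slc25a4 encode adenine nucleotide translocators, which exchange ATP for ADP across the inner membrane. Slc25a5, the more abundant at a mean of 1034 CPM, was higher in males (0.17, SE 0.04, adjusted p = 0.0137, edgeR), as was the outer membrane channel gene Vdac2 (0.18, SE 0.05, adjusted p = 0.0189). Slc25a4, the heart and muscle form, was lower in males (-0.44, SE 0.07, adjusted p = 0.00256, edgeR). It measured 98.4, 106, 92.9 and 83.8 CPM in MWT, 81.0, 88.02, 65.7 and 83.4 in MLKO, 109, 127, 111 and 119 in FWT and 115, 132, 123 and 107 in FLKO, so that every female library lay above every male library. It moved in the same direction as the smooth muscle markers, but also as the Paneth cell and the enteric neuron and glia markers, and their part was not tested. Slc25a4 was also called lower in MLKO than in FLKO (-0.59, SE 0.09, adjusted p = 0.0395, edgeR). The last call was lost when any 1 of MLKO replicates 1, 3 and 4 or FLKO replicates 1, 2 and 3 was left out (adjusted p between 0.0512 and 0.123, edgeR). That of Cs was lost without MLKO replicate 3, FWT replicate 1, FWT replicate 2 or FLKO replicate 1 (adjusted p between 0.0518 and 0.0586, edgeR). With sets of title numbers as a factor, Slc25a4, Slc25a5, Cs and Lrpprc were no longer called over both genotypes (adjusted p between 0.072 and 0.322, edgeR). Of the 79 cytosolic ribosome genes 1, Rpl24, was called between the sexes, and of the 16 biogenesis regulators 0, with 2 at a p under 0.05 before adjustment.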

How the data were processed

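Total RNA of the distal ileum was made into poly(A)-selected, stranded libraries and sequenced with 100 base single-end reads in 16 samples, 4 in each group. The authors used STAR 2.5.2 and the mm10 genome for alignment, discarded reads with several mapping positions or over 4 mismatches, and counted exonic reads of RefSeq genes in HOMER 4.10. The deposited table holds these raw counts, as the authors left them, without normalization. The strand option and annotation release are not given in the sources used here. Depth was 15.7 to 60.3 M counts, and 3 counts correspond to 0.0497 to 0.191 CPM. Intervals cover the spread between samples.

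Genes were filtered by group and tested with edgeR 4.0.16 in R 4.3.3 (TMM scaling, robust quasi-likelihood F-test, Benjamini-Hochberg adjustment over all genes tested, threshold 0.05). Beforehand the steps were run on simulated counts with the same dispersion for all genes. The changes put in were larger than those of the called members, so that run does not bear on differences of their size. DESeq2 1.42.0, 2 other scalings, 2 other filters, other fits, the replicate number, the title number and leaving out each replicate were alternatives. For each group comparison only its own samples were fitted, and the interaction and the 2 pooled effects used all 16. The SE is the log2 fold change divided by the square root of F. Levels are CPM and CPM per kb on 1 TMM scale. Members and gene lists were chosen with earlier results of these data known. Named were up to 8 called members per comparison (otherwise the 4 with the smallest p), the 3 largest and 3 smallest changes averaging at least 1 CPM in each genotype comparison within a sex, the highest and lowest level per complex among the genes tested, core members and isoform pairs, and other genes after their values were seen. Protein sequences were not used here, and some items covered by these rules are not reported here.

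Samples with the same replicate number in different groups did not deviate together (correlations of deviations between -0.18 and 0.29, over 0.1 in 7 of 24 cases), so the number was not treated as a pairing. Replicates differed by more than counting noise (chi-square per degree of freedom of at least 8.84 in all 24 pairs within groups). Of the members, 14 overlap another gene, 2 of them a microRNA gene on the same strand.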

Additional observations from a re-analysis of the deposited data

Results flagged for a closer look

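Single libraries were set against the others of their group of 4 by the gap to the nearest other value relative to the group's range, and 19 of 176 groups held such a library, where chance gives about 1 in 20 (5%). Groups of related genes share libraries, so these are not 19 separate events.

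MWT replicate 3 stood above the other 3 MWT libraries in 6 of them. Its median log2 ratio was 0.17 over complex I (others -0.02 to 0.01) and 0.19 over complex III (others -0.00 to 0.03). It had 369 CPM of Cox6a1 (others 297 to 307), 71.0 CPM of Ndufa2 (62.6 to 63.8), 98.5 CPM of Ndufa8 (89.7 to 91.2) and 129 CPM of Ndufb8 (111 to 114). FWT replicate 2 had the highest member level of its group, a median log2 ratio of -0.014 (others -0.08 to -0.07), and -0.036 over complex III (others -0.11 to -0.10).

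In FLKO, replicate 3 was low for Ndufa8 at 75.8 CPM (others 89.2 to 90.2) and for Ndufs1 at 138 CPM (others 151 to 154). In MLKO, replicate 4 was low for Ndufa2 at 57.6 CPM (others 65.4 to 67.0) and for Atp5j2 at 203 CPM (others 213 to 214). MLKO replicate 2 was low for Ndufa9 at 143 CPM (others 149 to 150) and Sdha at 497 CPM (others 536 to 540), and high for Cox7c at 4.24 CPM (others 3.26 to 3.41). MLKO replicate 3 was high for Sdhd at 303 CPM (others 275 to 280), and MLKO replicate 1 was low for Ndufb4 at 1.42 CPM (others 1.99 to 2.03). FWT replicate 1 was low for the low-count genes Cox4i2 at 0.861 CPM (others 0.932 to 0.936) and Cox6b2 at 4.07 CPM (others 5.50 to 5.70).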

How the results depend on the processing

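In the 6 comparisons other than males against females over both genotypes, 0 members were called under the main setting and under each of 17 to 27 others. For males against females the count of 5 became 10 with DESeq2 and 0 with upper-quartile scaling, with no filter, with the title number as a covariate and with sets of neighbouring title numbers as a factor. It was 4 or 5 under the remaining settings, and leaving out 1 library gave 0 to 6. With the replicate block it was 4, the call of Atp5a1 being lost at an adjusted p of 0.0579 (edgeR), and same-numbered samples did not correlate best with each other in 18 of 24 cases. The levels of members relative to other genes changed from 13.9-fold to 3.96-fold when CPM replaced CPM per kb. With the title number as a covariate, Ndufa6 in males was 0.022 in place of -0.13, Ndufa4l2 in males -0.67 in place of 0.17, and the members' median for MLKO against FLKO 0.07 in place of -0.02, and the cause was not tested. The male values cannot be read as adjusted, since every MWT title number is below every MLKO one and the covariate runs with genotype. Leaving out 1 library gave -0.0053 to 0.47 for Ndufa4l2 and -0.36 to 0.028 for Cox4i2 in males and -0.29 to 0.053 for Atp5l in females. Over all settings the members' median stayed above 0 in females (0.04 to 0.10), MWT against FWT (0.06 to 0.12) and males against females (0.01 to 0.11) and below 0 for the interaction (-0.14 to -0.05), and took both signs in males (-0.05 to 0.01), over both sexes (-0.01 to 0.07) and for MLKO against FLKO (-0.06 to 0.07). Low counts limit the 12 members averaging under 10 CPM.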
